A study of Mus musculus with 6 samples.

Results

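The 10 genes described here encode the stress transcription factor ATF4, its relative ATF5, 4 C/EBP factors, and 4 genes that ATF4 and its partners are known to switch on during prolonged stress. They were taken by gene symbol from the 24346 symbols of the deposited tables. They are read as 6 factors (Atf4, Atf5, Cebpa, Cebpb, Cebpd and Cebpg) and 4 stress targets (Ddit3, Trib3, Chac1 and Atf3). The genes were chosen with their difference between the cell lines already known, so that difference is given as a description and carries no p-value. RNA was sequenced from 2 lines labelled CT26 and colon, with 3 samples of each, treated here as replicates of the line. All 6 titles carry cl9, a tag that the labels do not explain. The parental line, CT26.mMR1, is the mouse colorectal tumor line CT26 made to overexpress mouse MR1, the molecule that presents metabolites to MAIT cells, by retroviral transduction. M8 is a single clone of CT26.mMR1, obtained by limiting dilution after treatment with the mutagen ENU, so both lines carry the Mr1 transgene. The position of the ENU mutations in M8 was not analysed here. The study picked M8 in a screen of such clones, in a search for tumor ligands of MAIT cells.

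ATF4 is the main effector of the integrated stress response. When a kinase phosphorylates the initiation factor eIF2, most translation slows, but the ATF4 message is translated more, because upstream reading frames in its leader then let ribosomes reach the coding sequence. ATF4 and the C/EBP factors belong to the bZIP family, which bind DNA as pairs, and an ATF4 and C/EBP pair recognizes a composite site known as the CARE (C/EBP-ATF response element). Among the targets, Ddit3 encodes CHOP, itself a C/EBP relative that is linked to cell death under lasting stress. TRIB3 is a pseudokinase that restrains ATF4 and AKT, CHAC1 degrades glutathione, and ATF3 is a bZIP factor that is induced early by many kinds of stress. In tumor cells, ATF4 is best known for keeping amino acid supply up.

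The libraries held an estimated 23800000 to 26900000 mapped reads in the parental line and 19400000 to 22000000 in M8. Of 10 markers of colon epithelium, Epcam, Cdh1, Krt19 and Cdx2 were listed at 0 in every library, while Krt18 (24.5 to 38.4 FPKM) and Krt20 were present, Krt20 at 15.1 to 19.8 FPKM in the parental libraries and, without overlap, at 10.8 to 12.7 FPKM in M8. Of the 10, 8 were below 1 FPKM in every library. All 5 mesenchymal markers were expressed, and their summed level was 2545 to 2970 FPKM in the parental libraries and 2666 to 2760 FPKM in M8. Within that sum, Fn1 was wholly lower in M8 (468 to 499 FPKM, against 598 to 642 FPKM) while Pdgfrb (24.2 to 26.4 FPKM, against 20.6 to 22.2 FPKM) and Col1a1 (90.7 to 97.6 FPKM, against 87.5 to 89.3 FPKM) were wholly higher, and the part of these markers in the results was not tested. Markers of myeloid cells, which also use C/EBP factors, were below 1 FPKM except Cd14, and the macrophage genes Csf1r and Adgre1 were listed at 0. Over all 10597 genes with a mean FPKM (mapped fragments per kilobase of exon, scaled to the size of the library) of 1 or more, limma's test on log2(FPKM + 1) at an adjusted p below 0.1 called 21.2% higher in M8 and 16.5% lower, 37.7% in either direction. With upper-quartile scaling, the split was turned, with 1470 genes higher and 2769 lower in place of 2250 and 1745.

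The CARE is the sequence through which ATF4 acts on its targets, so the promoters were searched for it on both strands, as TGATGNAA. RefSeq promoters of GRCm38.p6 (the mm10 assembly), 250 bases before to 50 after an annotated start, were at hand for 9 of the 10 genes. The Atf5 window (44815609 to 44815908) lay inside the annotated gene, which is on the minus strand and has its outer end at 44816658. Within these windows, the CARE letters were present in 3 of the 4 targets and in 0 of the 5 factors in that table, against 3.97% of all 32851 promoters. The counts are of genes and the share is of promoters. Sites farther from the start were not searched, so a gene without the letters here may carry them elsewhere. The 3 windows are printed on the strand of the gene, with the CARE in capitals as its reverse complement.
Atf3: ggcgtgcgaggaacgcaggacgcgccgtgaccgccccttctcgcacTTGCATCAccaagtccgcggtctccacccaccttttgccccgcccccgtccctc
Chac1: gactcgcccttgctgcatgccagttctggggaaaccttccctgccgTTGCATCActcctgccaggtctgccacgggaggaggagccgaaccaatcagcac
Trib3: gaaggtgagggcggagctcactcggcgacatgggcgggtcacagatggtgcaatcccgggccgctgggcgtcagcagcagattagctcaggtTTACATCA
These windows are chr1:191183390-191183489 (minus strand) for Atf3, chr2:119351003-119351102 (plus strand) for Chac1 and chr2:152344039-152344138 (minus strand) for Trib3. The Atf3 site began 110 bases before the annotated start, the Chac1 site 193 bases before it, and the Trib3 site at base 15 after it. Atf3 and Chac1 shared the same 8 letters, whereas Trib3 had another base at the free position of the motif. A CCAAT box (CCAAT, either strand) lay in the windows of 3 factors (Atf4, Atf5 and Cebpg) and 3 targets (Ddit3, Chac1 and Atf3), against 37.4% of all promoters. The cAMP response element (TGACGTCA, in 1.79% of promoters), a C/EBP site (TTGCNNAA, 10.8%) and the ER stress element (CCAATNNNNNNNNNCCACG, 0.119%, which holds a CCAAT box) were in none of the 9 windows. A match describes the letters of the promoter, not binding of a factor.

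The levels of the 10 genes ran from 0.022 to 680 FPKM, a per-length scale, and their order was the same in both lines. Atf4 stood first, followed by Atf5, Ddit3, Trib3, Cebpb, Chac1, Cebpg, Cebpd, Cebpa and Atf3. Neighbours in this order did not overlap in either line, except Cebpb and Chac1 in the parental libraries. There Cebpb ranged from 42.8 to 66.3 FPKM and Chac1 from 44.0 to 52.0 FPKM, whereas in M8 the lowest Cebpb value, 81.3 FPKM, was above the highest Chac1 value, 49.5 FPKM. Atf4 was above 99.4% of all symbols by its mean in each line. The stress targets Ddit3 and Trib3 were also among the strongly expressed genes, with means above 98.7% and 98.0% of all symbols in parental cells and 98.7% and 97.8% in M8.

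**Figure D1:**
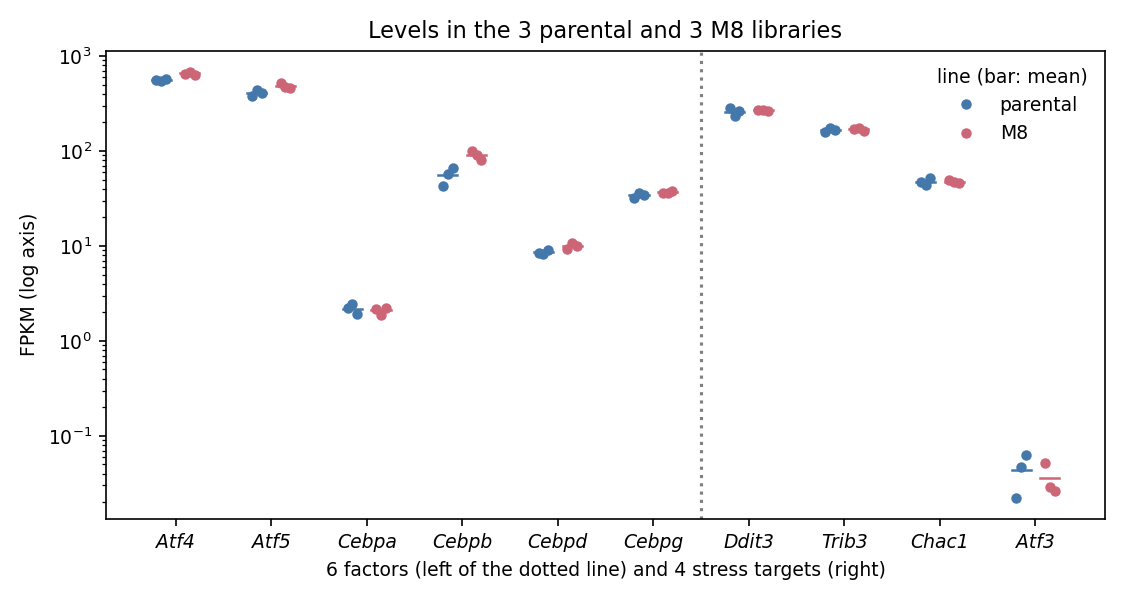
FPKM (log axis) of each gene in the 3 parental (blue) and 3 M8 (red) libraries, with the mean of each line as a bar. Factors are left of the dotted line, and Atf3, at the far right, lies far below the other targets at 0.022 to 0.063 FPKM.

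Among the factors, Atf4, Atf5, Cebpb, Cebpd and Cebpg had all 3 M8 values above all 3 parental values, while Cebpa did not. Across all genes tested, 24.8% had their M8 values wholly above the parental ones and 20.4% wholly below, 45.2% in either direction, and nothing is read from the count here, since the genes were chosen on this contrast. The median difference of the 6 factors was 0.22 on the log2(FPKM + 1) scale, that of the 4 targets was 0.013, and that of all genes tested was 0.0069. The target median includes Atf3 (-0.012), which was too low to be tested and is held near 0 on this scale. The 3 targets tested had differences of 0.0051, 0.021 and 0.054. In bulk RNA, fewer cells that express a gene and less RNA of it per cell cannot be told apart for any value given here.

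Atf4, the center of the response, was at 561, 543 and 568 FPKM in parental replicates 1 to 3 and at 649, 680 and 639 FPKM in M8. The lowest M8 library thus lay above the highest parental one, and the spread within each line was small (557 ± 12.6 and 656 ± 21.3 FPKM, SD, n = 3 each). The difference was 0.24 on the log2 scale (standard error 0.041), a ratio of means of 1.18. Over the alternatives it ranged from 0.12 with quantile normalization to 0.25 without M8 replicate 3. The annotated leader of the longest coding Atf4 transcript in GENCODE is 594 bases long and holds 3 upstream ATG triplets. The reading frames that these triplets open were not examined. FPKM values measure the message only, so they give no level of ATF4 protein.

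Atf5, whose message is translated under stress in the same manner as that of Atf4, was at 380, 437 and 410 FPKM in parental cells and at 520, 478 and 461 FPKM in M8. The M8 values lay above the parental ones, although the gap between the nearest libraries, 437 and 461 FPKM, was smaller than the SD of either line (28.5 and 30.5 FPKM). Its difference, 0.25 (standard error 0.061), was close to that of Atf4. Relative to Atf4 within each library, Atf5 was at 0.735 ± 0.0644 in parental cells and 0.742 ± 0.0524 in M8 (SD, n = 3 each), and the ratios overlapped between the lines. Atf5 overlaps Nup62 and Il4i1b in the annotation. Nup62 had 43.8 ± 1.04 and 47.3 ± 0.564 FPKM (SD, n = 3 each).

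Cebpb encodes C/EBPβ, a factor of inflammation and differentiation that also pairs with ATF4, and it had the largest difference of the 10 genes. It was at 42.8, 57.1 and 66.3 FPKM in parental cells and at 101, 90.3 and 81.3 FPKM in M8. The groups did not overlap, but the parental libraries were spread widely, with a coefficient of variation of 21.4%, against a median of 5.62% over all genes tested in that line. The difference was 0.72 (standard error 0.14), larger than that of 99.7% of the genes tested, and the ratio of means was 1.64. Parental replicate 1 was the lowest of all libraries. Without it the difference was 0.55, and without parental replicate 3 it was 0.86.

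Cebpd encodes C/EBPδ, an acute-phase factor, and was at 8.37, 8.22 and 9.03 FPKM in parental cells and at 9.39, 10.8 and 9.98 FPKM in M8 (difference 0.21, standard error 0.066). Its nearest libraries were 0.362 FPKM apart. The difference was 0.19 without parental replicate 2, and 0.16 without M8 replicate 2 or with upper-quartile scaling. Cebpd overlaps Spidr, which was lower in M8 (20.0 ± 1.79 and 16.1 ± 1.04 FPKM, SD, n = 3 each), the opposite direction. Cebpg encodes C/EBPγ, a partner of ATF4 in the amino acid response, and was at 32.1, 35.9 and 34.6 FPKM in parental cells and at 36.4, 36.0 and 37.8 FPKM in M8. Its M8 values were the higher ones by a margin of only 0.0533 FPKM between the nearest libraries (difference 0.10, standard error 0.051).

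Cebpa encodes C/EBPα, a factor that stops cell division during differentiation, and was weakly expressed. It was at 2.202, 2.43 and 1.93 FPKM in parental cells and at 2.18, 1.86 and 2.24 FPKM in M8, and the lines overlapped (difference -0.042, standard error 0.098). These values rest on roughly 88 to 140 reads per library. The sign of the difference was turned by quantile normalization (0.038) and without parental replicate 2 (0.012) or M8 replicate 2 (0.014). The gene lies on chromosome 7 (35119293 to 35121928), like Cebpg (35046422 to 35056566) and Atf5 (44812256 to 44816658). The longest coding transcripts of Cebpa, Cebpb and Cebpd each have 1 exon.

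The difference of Cebpb can also be given as a share, which restates it on a scale free of library size. Cebpb held 50.1%, 55.1% and 59.2% of the summed FPKM of the 4 C/EBP genes in the parental libraries and 67.7%, 65.0% and 61.9% in M8. Cebpg, the next in amount, held 34.4 ± 3.32% and 26.4 ± 2.19% (SD, n = 3 each). Since shares sum to the whole, a higher share of Cebpb lowers the others, also those of Cebpd and Cebpg, whose own FPKM values were higher in M8. The sum itself had a mean of 100.4 ± 13.5 FPKM in the parental line, against 139.7 ± 8.65 FPKM for M8 (SD, n = 3 each).

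**Figure D2:**
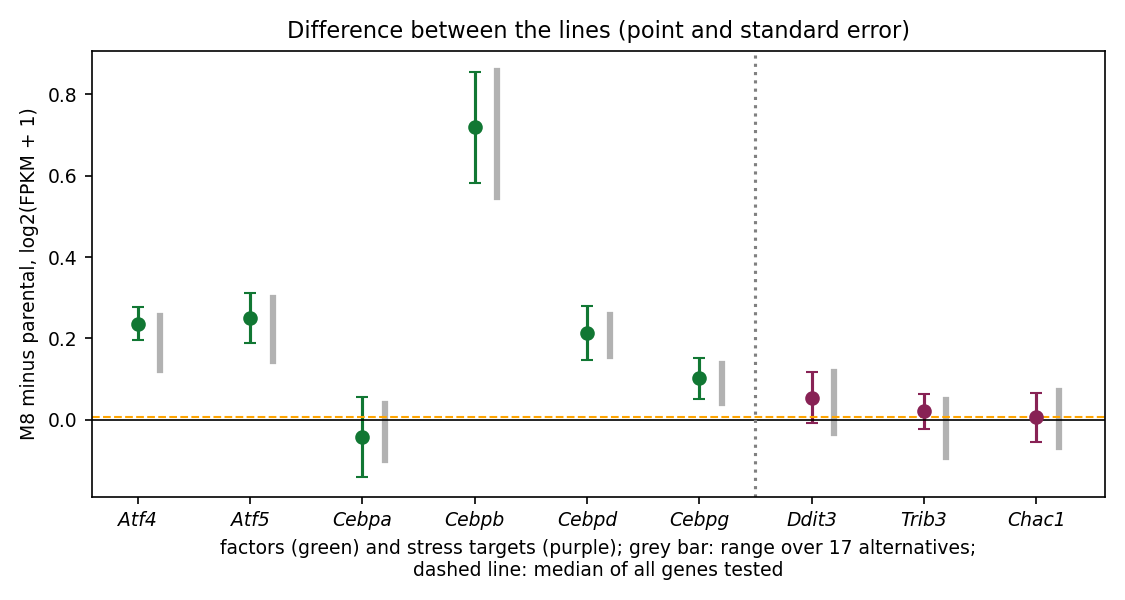
Difference between M8 and parental libraries on the log2(FPKM + 1) scale with its standard error from limma (points), for the factors (green) and the 3 targets tested (purple). Grey bars give the range over 17 alternatives. Cebpb stands at 0.72, Atf4, Atf5 and Cebpd lie between 0.21 and 0.25, and the targets lie between 0.0051 and 0.054.

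The targets overlapped between the lines. Ddit3 was at 282, 232 and 264 FPKM in parental cells and at 271, 269 and 266 FPKM in M8, so that the M8 values lay inside the parental range (difference 0.054, standard error 0.063). Its M8 libraries were close to each other, with a coefficient of variation of 0.991%, against 9.71% in parental cells. Without parental replicate 1 the difference was 0.12, without parental replicate 2 it was -0.024, and with quantile normalization it was -0.034. Ddit3 (chromosome 10, 127290793 to 127296291) overlaps Mars1, deposited as Mars, and Mbd6. Both of these rose in M8, Mars by 0.18 (limma adjusted p = 0.0152) and Mbd6 by 0.27 (limma adjusted p = 0.00635), and the way the authors' software divided shared reads is not given in the sources used here. The call of Mars was lost with quantile normalization.

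Trib3 was at 160, 173 and 168 FPKM in parental cells and at 170, 173 and 164 FPKM in M8, and the lines overlapped (difference 0.021, standard error 0.043). Its difference was 0.048 without parental replicate 2 and -0.093 with quantile normalization. Chac1 was at 46.8, 44.0 and 52.0 FPKM in parental cells and at 49.5, 47.4 and 46.0 FPKM in M8 (difference 0.0051, standard error 0.061). Both means of Chac1 were near 48 FPKM (47.6 ± 4.08 and 47.7 ± 1.77 FPKM, SD, n = 3 each), and no alternative moved its difference beyond -0.068 or 0.070. With upper-quartile scaling, which lowered the median of all genes to -0.049, each of these 3 differences was below 0.

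Atf3 was nearly silent in both lines. It had 0.022, 0.047 and 0.063 FPKM in parental cells and 0.051, 0.029 and 0.026 FPKM in M8. In the steps that single reads leave in the FPKM values, these levels correspond to 1, 2 and 3 reads in the parental libraries and to 2, 1 and 1 reads in M8. With 6 reads against 4 in all, no difference was detectable at this depth, and Atf3 did not enter the test because of its low mean. Its promoter carries the CARE letters shown above, as does that of Chac1, which was at 44.0 FPKM or above in every library.

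Set against Atf4 inside each library, the targets moved like the typical gene, whose ratio to Atf4 was lower in M8 because Atf4 itself was higher. The ratio of Ddit3 to Atf4 was 0.503, 0.427 and 0.466 in parental cells and 0.417, 0.396 and 0.415 in M8. That of Trib3 was 0.285, 0.319 and 0.296 in parental cells and 0.262, 0.255 and 0.257 in M8. That of Chac1 was 0.0834, 0.0809 and 0.0916 in parental cells and 0.0763, 0.0697 and 0.0720 in M8. None of the 3 ratios overlapped between the lines, and the means of M8 stood at -12.01%, -13.9% and -14.8% from the parental means. Over the 10596 other genes tested, the median was -14.65%, and 61.8% had all 3 M8 ratios below all 3 parental ones, so nothing particular to the targets is read from this separation. Such ratios are free of the scaling between libraries, but they restate the contrast that chose the genes and are no independent evidence. Among the factors, the ratio of Cebpb to Atf4 was 0.0994 ± 0.0208 in the parental line and 0.138 ± 0.0147 in M8, without overlap (SD, n = 3 each). That of Cebpg had means of 0.0615 and 0.0561, a change of -8.81% in the direction of the targets, and that of Cebpd was 0.0153 in both, and both overlapped between the lines.

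**Figure D3:**
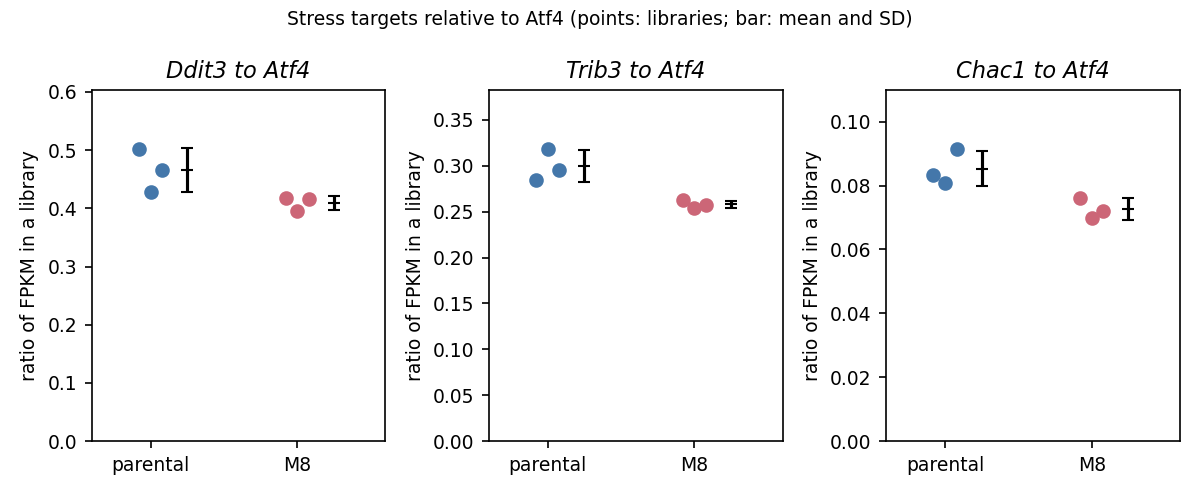
Ratio of the FPKM of Ddit3, Trib3 and Chac1 to that of Atf4 in each library (points), with the mean and SD of each line (black bars, n = 3). All 3 M8 ratios lie below all 3 parental ratios for each gene, as for 61.8% of all genes tested, and every axis starts at 0.

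Within a line, the genes did not move as a block from library to library. Parental replicate 1 had the lowest Atf5, Cebpb, Cebpg and Trib3 values of its line but the highest Ddit3 value. Parental replicate 2 had the highest Trib3 value and the lowest Ddit3 and Chac1 values. In M8, replicate 1 had the highest Atf5, Cebpb, Ddit3 and Chac1 values, whereas replicate 2 had the highest Atf4, Cebpd and Trib3 values. The genes with the most similar pattern over the 6 libraries were named by the smallest root mean square difference of log2(FPKM + 1), centered on the parental mean, among 8257 genes with a mean of 5 FPKM or more, the 10 genes and unnamed gene models (Gm, Rik and clone symbols) left out. For Atf4 they were Swi5, Cox6a1 and Zhx2, at 0.0105 to 0.0173. For Ddit3 they were Zcchc17, Foxred1 and Esf1, at 0.0302 to 0.0322. Cebpb had no gene as close, the nearest being Scand1 (0.106), Rpl30 (0.137) and Mrps6 (0.156). Its spread within a line was also larger (pooled SD 0.25 on this scale, against 0.040 for Atf4), and such spread enters the distance.

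The surrounding pathway was counted over 8 lists of 159 genes, none of them among the 10, and 134 passed the filter on low values. The lists were chosen with earlier results of these data known, so their shares are given as a description. The list nearest to Atf4 holds its known targets for amino acid supply and tRNA charging, and nearly all of it rose, a direction that was known when the list was made. Of its 28 genes tested, 26 were higher in M8 and 0 were lower (0 also at an unadjusted p below 0.05, and 0 by eBayes without a trend), against 21.2% and 16.5% of all genes. The count of higher genes was 21 to 26 over the 17 alternatives, and 1 gene, Slc1a5, was lower with quantile normalization, with upper-quartile scaling or without parental replicate 2. The median difference of the list was 0.27, of the size of Atf4 itself and well above that of the stress targets. Shmt2, the mitochondrial serine hydroxymethyltransferase, rose by 0.61, Slc7a5, the exchanger for large neutral amino acids, by 0.57, and Psph, the last enzyme of serine synthesis, by 0.52 (limma adjusted p = 0.000261, 0.000163 and 0.000206). Each of these was called in all 17 alternatives. The genes not called were Slc1a5, a glutamine transporter (-0.077), and Pycr1, an enzyme of proline synthesis (-0.013).

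The CARE letters were present in the promoters of 9 of the 22 genes of this list that had a promoter in the table (40.9%), against 2.56% of the 8550 genes tested with one. They were Aars, Asns, Gars, Iars, Pycr1, Slc1a4, Slc7a11, Tars and Yars, and 8 of the 9 were higher in M8. Over all genes, the letters came with shares near the background. Among all 219 genes tested that carried the letters, 23.3% were higher in M8 and 17.8% were lower, beside the 21.4% and 16.4% of all genes with a promoter. Among the other stress and death targets, 3 of 11 carried the letters (27.3%). Of these, Fgf21 had a difference of 0.36 and did not pass (limma adjusted p = 0.109), while Nupr1 and Vldlr passed as lower. Without M8 replicate 1 neither of the latter passed, Vldlr also did not pass without parental replicate 2, and Nupr1 was lost in 7 of 17 alternatives, among them those without parental replicate 3, M8 replicate 2 or M8 replicate 3.

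Of the remaining stress and death targets of ATF4 and CHOP, 12 were tested, and 3 were higher (25%) and 6 were lower (50%) in M8, beside 21.2% and 16.5% of all genes. The hormone gene Adm2 rose by 1.13, with means of 6.55 ± 1.58 FPKM in the parental line and 15.4 ± 1.001 FPKM in M8 (SD, n = 3 each, limma adjusted p = 0.000516). Stc2, encoding the secreted protein stanniocalcin 2, rose by 0.53 (limma adjusted p = 0.00336). Sesn2, a leucine sensor that restrains mTORC1, rose by 0.31 (limma adjusted p = 0.00486) and was chosen after its values were seen. Bcl2l11 encodes the killer protein BIM, a direct target of CHOP, and fell from 6.56 ± 0.157 to 4.198 ± 0.217 FPKM (SD, n = 3 each), a difference of -0.54 (limma adjusted p = 0.000737). These 4 genes were called in every alternative that tested them. The other lower genes, named after their values were seen, were Ero1l, Bbc3, Tnfrsf10b, Nupr1 and Vldlr, with differences from -0.42 to -0.13, and none of the 5 passed in all 17 alternatives. Few libraries decide this count, which was 2 without parental replicate 2 or 3, 1 without M8 replicate 1, 2 without M8 replicate 2 and 3 without M8 replicate 3 and was also 2 at an adjusted p below 0.05 and 3 without a filter on low values.

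Upstream of ATF4 stand the kinases, phosphatase subunits and initiation factors of the eIF2 step. Of 17 genes tested, 9 were higher and 0 were lower (0 also at an unadjusted p below 0.05, and 0 by eBayes without a trend), against 21.2% and 16.5% of all genes, and the median difference was 0.11. Eif2ak2, which encodes the double-stranded RNA kinase PKR and is itself induced by interferon, rose by 0.31 (limma adjusted p = 0.00137). The phosphatase catalytic subunit Ppp1ca rose by 0.26 (limma adjusted p = 0.00157), and the eIF2B subunit Eif2b1 by 0.22 (limma adjusted p = 0.0317), a call that was lost without M8 replicate 1. The other eIF2 kinase genes are named after their values were seen. Eif2ak1, the kinase of heme shortage, rose by 0.12 (limma adjusted p = 0.0623), a call lost in 7 of 17 alternatives, among them those without parental replicate 2, M8 replicate 1 or M8 replicate 2. The kinase genes of ER stress (Eif2ak3, 0.0077) and amino acid shortage (Eif2ak4, -0.13) did not pass. The count of higher genes was 5 with quantile normalization or without M8 replicate 1, and 1 gene was lower with upper-quartile scaling.

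The ATF6 and XBP1 branch of the unfolded protein response, which acts in the ER beside ATF4, had few calls. Of 23 genes tested, 2 were higher and 2 were lower, and 8.70% in each direction is below the share of all genes. Pdia6 (-0.19, limma adjusted p = 0.00828) and Hsp90b1 (-0.16, limma adjusted p = 0.0204), both chaperones of the ER, fell. Atf6b, a paralog of the sensor gene Atf6, rose by 0.16 (limma adjusted p = 0.0344), a call that was lost without M8 replicate 2 or 3 and with quantile normalization or upper-quartile scaling. The counts depended on the scaling, and 8 genes were lower with TPM, 10 with upper-quartile scaling and 11 with quantile normalization. Without M8 replicate 1 or 3, 1 gene was higher, without M8 replicate 2 there was none, and without parental replicate 1 or 2, 4 were lower.

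The list of genes known to be regulated by C/EBP factors is mostly silent in these cells. Of its 22 genes, 9 were expressed enough to be tested, and 1 was higher (11.1%) and 3 were lower (33.3%), beside 21.2% and 16.5% of all genes. Lcn2, encoding the siderophore-binding protein lipocalin 2, fell from 46.2 ± 9.83 to 13.8 ± 2.73 FPKM (SD, n = 3 each), a difference of -1.67 (limma adjusted p = 0.000206). Ptgs2, the inducible cyclooxygenase, fell by 0.30 on the log2 scale (limma adjusted p = 0.0146). The acute-phase gene Saa3 was lower by a difference of -0.79 (limma adjusted p = 0.0483), a call that was lost without parental replicate 1, M8 replicate 2 or M8 replicate 3. The higher gene was Cd14 (0.15, limma adjusted p = 0.0489), a call lost without parental replicate 1, M8 replicate 1 or M8 replicate 2 and with TPM or upper-quartile scaling. Without parental replicate 2, 5 genes of the list were lower.

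Among 24 other bZIP factors tested, partners of ATF4 and the C/EBP factors included, 4 were higher (16.7%) and 6 were lower (25%), near the 21.2% and 16.5% of all genes. Fos fell from 2.45 ± 1.15 to 0.961 ± 0.208 FPKM (SD, n = 3 each, difference -0.77, limma adjusted p = 0.0192). The difference of Fos was -0.51 without parental replicate 1 and -1.197 with a pseudocount of 0.1. Crebzf, a partner that represses several bZIP factors, rose by 0.43 (limma adjusted p = 0.00560). Crem, a regulator of cAMP-responsive genes, had a difference of -0.41 (limma adjusted p = 0.0659), and this call was lost in 6 alternatives, among them those without parental replicate 3 (-0.24), M8 replicate 1 or M8 replicate 2. The count of lower bZIP genes was 3 without parental replicate 3, M8 replicate 1 or M8 replicate 3 and 2 without M8 replicate 2. Jdp2, the nearest relative of Atf3, rose by 0.22, with means of 44.0 ± 1.68 FPKM for the parental line and 51.5 ± 1.08 FPKM for M8 (SD, n = 3 each, limma adjusted p = 0.00575). Trib2, a paralog of Trib3, fell by 0.24 (limma adjusted p = 0.0286), a call that was lost without M8 replicate 2. Its difference stayed between -0.30 and -0.19 over the alternatives. Trib1 (0.094) and Chac2 (-0.080) did not pass.

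Of 17 core apoptosis genes tested, 5 were higher (29.4%) and 2 were lower (11.8%), beside 21.2% and 16.5% of all genes, counts that ranged from 2 to 6 and from 1 to 4 over the 17 alternatives. The executioners of the mitochondrial pathway Bak1 (0.23, limma adjusted p = 0.0116) and Bax (0.16, limma adjusted p = 0.0179) rose. The call of Bax was lost with quantile normalization. Birc2, an inhibitor of apoptosis, fell by 0.23 (limma adjusted p = 0.0366), a call that was lost without M8 replicate 2. Its difference stayed between -0.28 and -0.18 over the alternatives. The other called genes, named after their values were seen, were the survival genes Bcl2l1 (0.13, limma adjusted p = 0.0549) and Mcl1 (0.12, limma adjusted p = 0.0840) and the death gene Bid (0.13, limma adjusted p = 0.0819) on the higher side and the inhibitor Xiap (-0.15, limma adjusted p = 0.0900) on the lower side. None of these 4 passed at an adjusted p below 0.05. The call of Mcl1 was lost in 12 of 17 alternatives and that of Bcl2l1 in 7. Both were lost without parental replicate 1, M8 replicate 1 or M8 replicate 2. The number of higher genes was 3 without parental replicate 2 and 2 without M8 replicate 1 or M8 replicate 2, and the number of lower genes was 1 without any single library except parental replicate 3.

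**Figure D4:**
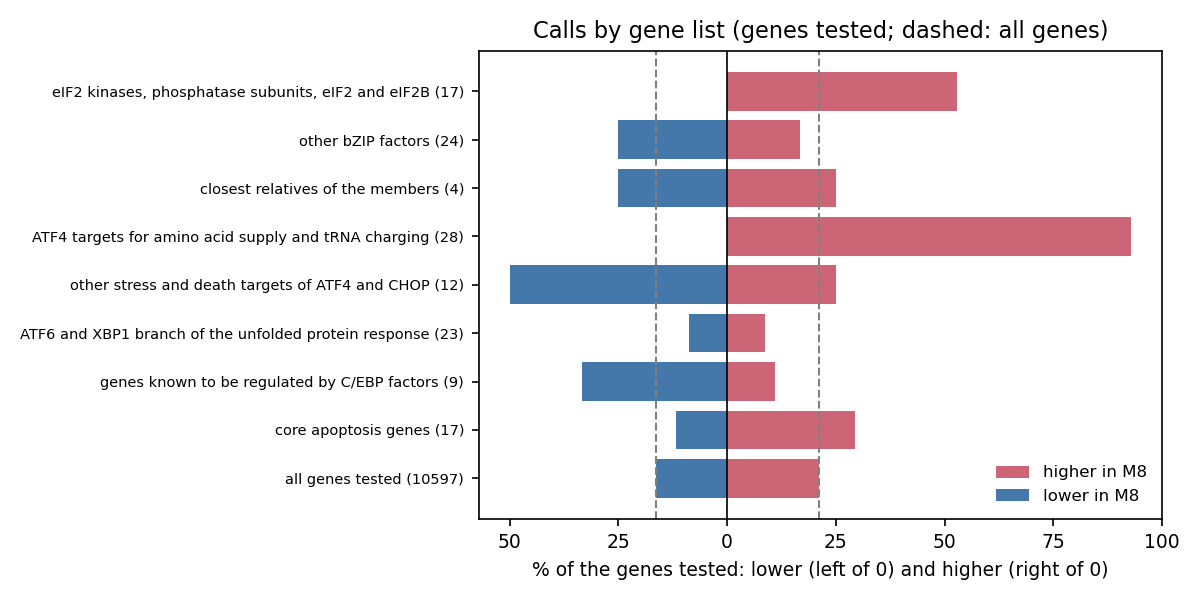
Percentage of the genes tested in each list (number in brackets) that limma called higher (red, right of 0) or lower (blue, left of 0) in M8, with the shares of all genes as dashed lines. The amino acid supply list, whose direction was known when it was made, has 26 of 28 genes on the higher side. The list of other stress and death targets has 3 higher and 6 lower genes of 12.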

How the data were processed

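Stranded mRNA libraries from 3 parental and 3 M8 samples were sequenced, mapped to mm10 with TopHat (TopHat2 2.1.1 in the submitters' processing notes) and deposited by the authors as FPKM values from Cufflinks 2.2.1 (Cuffdiff in the notes), 1 table per library. The gene annotation, and whether counting used the strand, is not given in the sources used here. The labels name separate RNA samples of each line, so p-values measure the spread between these samples. Genes whose FPKM averaged 1 or more over the 6 libraries (10597) entered a linear model per gene, with the line as its only term, in limma 3.58.1 (R 4.3.3). It was fitted to log2(FPKM + 1), a scale that understates the change of low genes, and eBayes was run with its trend option. Adjusted p-values are Benjamini-Hochberg values, with the study's threshold of 0.1. The 10 genes and the lists were chosen with earlier results of these data known. In each list, a fixed rule named the 3 called genes with the largest difference, or fewer where fewer were called. Any other list gene in the text was named outside this rule, also where this is not said. Slc1a5, Pycr1, Fgf21, Cd14, Trib1 and Chac2 are among these. Depth was estimated from the FPKM steps of low genes (whole reads within a tolerance of 0.02 in 1293 of 1560 such genes) and an assumed fragment length of 200 bases, and covers counting error only. Gene models came from GENCODE M21 and RefSeq. The 17 alternatives changed the pseudocount, the filter, the scaling, the trend, the threshold or the replicate block, or left out a library. The fit was also run on simulated data as a check of the code, and no result given here rests on that run. Python 3.11.15, pandas 2.3.3 and matplotlib 3.10.9 made the other tables and figures.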

Additional observations from a re-analysis of the deposited data

How the results depend on the processing

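The median difference of the 6 factors was 0.22 on the log2 scale. It was 0.19 with TPM, 0.13 with quantile normalization, 0.17 with upper-quartile scaling and 0.19 to 0.25 with each replicate left out in turn. The median of the 4 stress targets (0.013) was -0.051 with quantile normalization, -0.027 with upper-quartile scaling and -0.017 to 0.048 with a replicate left out. Over all genes, upper-quartile scaling gave 1470 higher and 2769 lower genes, and leaving out a replicate gave 1609 to 2101 and 1157 to 1672, with 1157 without M8 replicate 1. TPM gave 1656 higher and 2208 lower genes. The genes of the 8 lists that were higher numbered 51 (37 to 52 over the alternatives) and those lower 20, with 34 under upper-quartile scaling, 11 at an adjusted p below 0.05 and 9 to 21 with a replicate left out (13 without parental replicate 3, 11, 9 and 12 without M8 replicate 1, 2 and 3). The cause of these shifts was not tested. Scaling moved the median of all genes by less than 0.1 in each case, but this median does not show the shift of single genes. With quantile normalization, the difference of Atf4 was 0.12 in place of 0.24, and that of Trib3 was -0.093 in place of 0.021. With the replicate number as a block, 2171 genes were higher and 1688 lower, the medians of the factors and targets were 0.22 and 0.013, and 49 and 19 list genes passed, with 5 in place of 3 other stress and death targets higher. The correlations of same-numbered deviations were 0.10, -0.11 and -0.033, so the numbers were not taken to pair the samples, and samples did not all correlate best with their own number. Depth limits Atf3 most, with 10 reads in all libraries together.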
